A study of Homo sapiens with 10 samples.

Results

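The zinc finger genes of chromosome 7 are genes on hg19 chromosome 7 chosen by symbol, whatever their biotype. The symbol is ZNF, ZFP, ZSCAN, ZKSCAN, ZIM, ZIK, RBAK or HKR, followed only by an optional number and an optional final letter. This symbol rule uses no measured value. It gave 44 of the 562 zinc finger genes that the same rule finds on all chromosomes, among 24050 genes in the count tables. Of the 44 genes, 39 are protein coding and 5 are pseudogenes (ZNF890P, ZNF815P, ZNF733P, ZNF734P and ZNF767P). All 44 were tested in HEK293T cells and 34 in neural progenitor cells (NPCs). The other 10, a run of neighbours from ZNF479 to ZNF680, have no NPC value here, so that every NPC count and median below leaves them out.

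RNA-seq was compared between wild-type (WT) cells and cells in which ZNF274 had been knocked out (KO), in 4 groups of libraries. HEK293T is an established line from human embryonic kidney, with 3 WT libraries (S15, S16 and S17) and 3 ZNF274 KO libraries (S18, S19 and S20). The NPC libraries come from NPCs derived from H1 embryonic stem cells through embryoid bodies, with 2 WT libraries (S3 and S5) and 2 ZNF274 KO libraries (S1 and S2). The knockout used a pair of Cas9 guides flanking ZNF274, after which single HEK293T cells or single stem cell colonies were grown out. The NPC values are described as averages over separate parental cell lines, while the number of clones behind the HEK293T libraries is not given in the sources used here. The labels tie no library to a line or clone, so the effect of a clone and of the genotype cannot be told apart, and p-values measure only the spread between these libraries.

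C2H2 zinc finger proteins bind DNA through arrays of fingers, each reading a few bases. Many genes of the family in primates also encode a KRAB domain, which recruits the corepressor TRIM28 and, through it, the H3K9 methyltransferase SETDB1 and HP1 proteins. The genes lie in tandem clusters that grew by duplication, and the clusters themselves carry H3K9me3 over the exons that encode the fingers. ZNF274, a KRAB protein with a SCAN domain, binds there. The comparison asks how each cluster of chromosome 7 responds when ZNF274 is removed.

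A gap of more than 2 Mb between neighbours was taken as the border of a subcluster. The 44 genes fell into 5 subclusters of at least 3 members and 2 dispersed genes (ZNF277 and ZNF800). Subcluster 7p22 holds 6 members (chr7:5085452-6746578), 7p11 holds 3 (chr7:55955149-57533265), 7q11 holds 13 (chr7:62751896-64866049), 7q22 holds 8 (chr7:99070513-99680171) and 7q36 holds 12 (chr7:148766733-150095718). Subclusters 7p11 and 7q11 flank the assembly gap of the centromere, and their members lie 0.521 to 3.78 Mb from its edge.

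Libraries held 21421013 to 32285876 counts on genes in HEK293T cells and 18621266 to 23035490 in NPCs. ZNF274, the targeted gene, had 0 counts in each of the 5 KO libraries. Its WT level was 15.4 ± 1.14 CPM (read count relative to the library's total; SD, n = 3) in HEK293T cells and 24.3 ± 1.52 CPM (SD, n = 2) in NPCs. Measured against the floor of 3 counts per library, it was at least 137-fold lower in KO HEK293T cells and at least 172-fold lower in KO NPCs. The summed level of 3 embryonic kidney markers was 51.8 to 64.9 CPM over the 6 HEK293T libraries. WT NPCs carried the neural progenitor markers SOX1, SOX2, PAX6, NES, FABP7, VIM and MSI1, while HES5 was near the floor with 6 and 4 counts. Some markers of other cell types also had reads there, COL1A1 at 601 CPM and LIN28A at 74.2 CPM among them. SOX1 had 154 and 989 counts in WT and 1 and 2 in KO NPCs, the latter under the floor of 3 counts. CPM values are scaled by TMM, and intervals and floors cover counting error only.

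In HEK293T cells, 9 of the 44 genes were up-regulated and 0 down-regulated upon ZNF274 KO. All 9 lie next to the centromere, 2 in 7p11 (ZNF479 and ZNF716) and 7 in 7q11 (ZNF733P, ZNF734P, ZNF727, ZNF735, ZNF679, ZNF736 and ZNF680). Calls required an adjusted p under 0.05 (edgeR quasi-likelihood test, Benjamini-Hochberg over 19018 genes) together with a fold change (FC) above 2. Over all genes tested, 0.478% were called up and 0.0105% down. Of the 16 members of 7p11 and 7q11, 8 had at most 1 WT count and passed the filter on low counts through their KO libraries, which fixed their direction. The other 8 had a log2 FC above 0, as had 51.4% of all genes. In 7 of these 8, every KO library was above every WT library, an arrangement found in 7.16% of all genes. Among the 28 members elsewhere on the chromosome, 0 were called by edgeR, DESeq2 or voom, with 3 higher (ZNF12, ZNF655 and ZNF467) and 1 lower (ZNF783) at an unadjusted p below 0.05. Over all 44 genes, 17 were higher, the 8 with at most 1 WT count among them, and 1 was lower at an unadjusted p below 0.05, against 4.43% and 2.69% of all genes. DESeq2 called 9 higher and 0 lower, and voom 8 and 0, without ZNF479 (voom adjusted p = 0.0828).

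**Figure D1:**
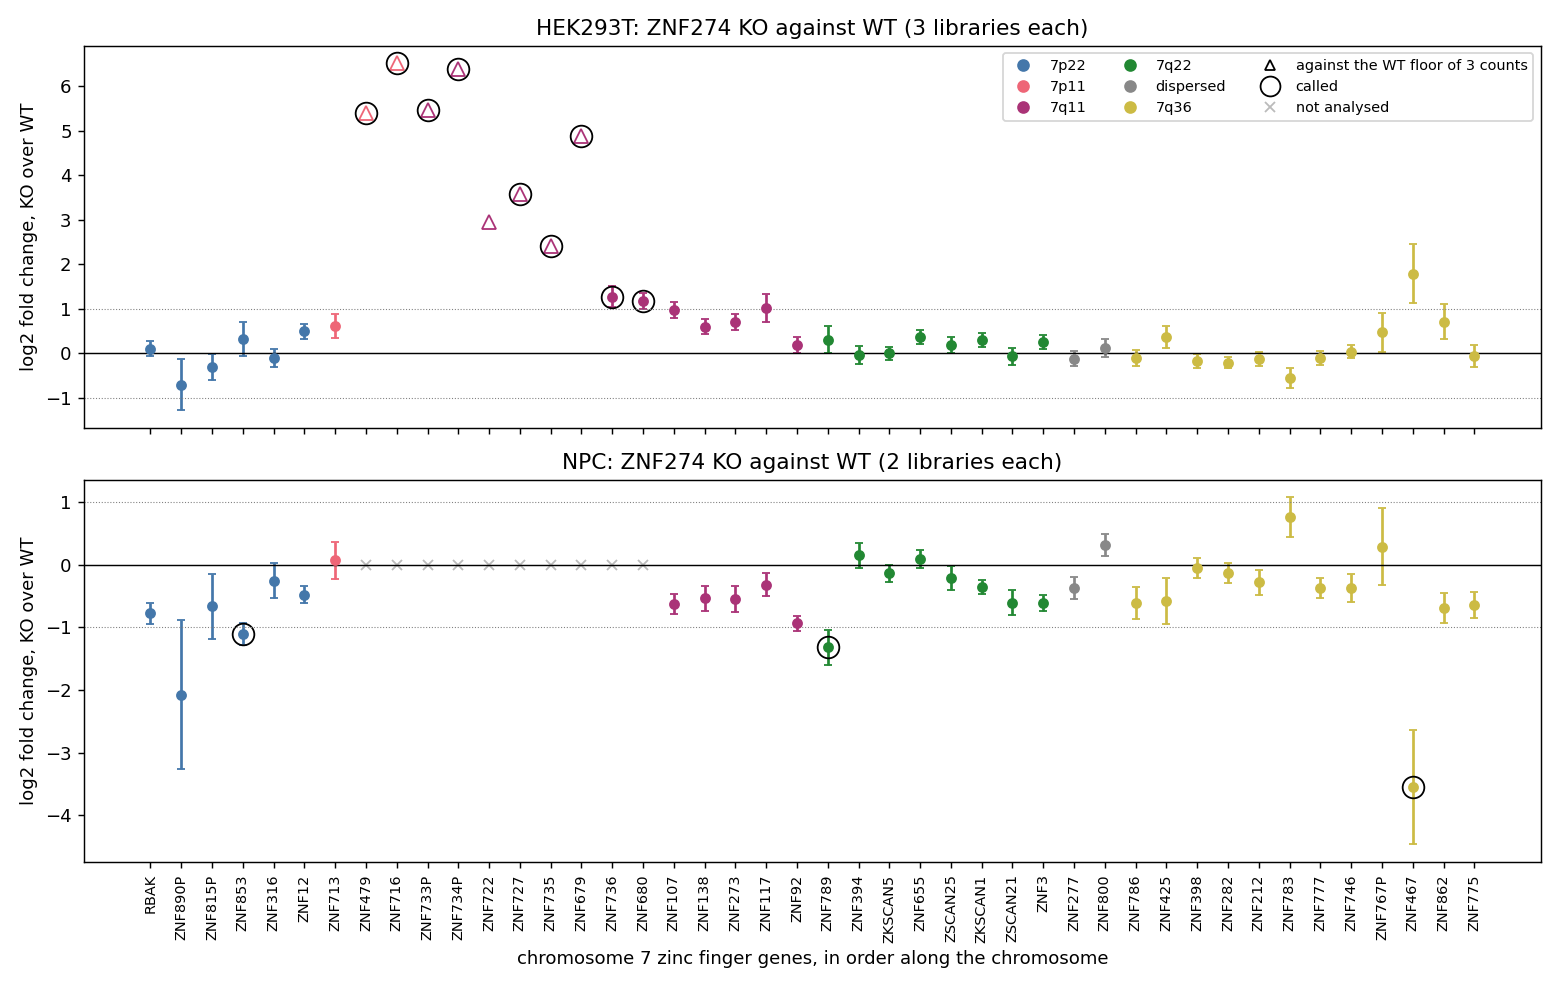
Log2 FC of KO over WT for the 44 genes in chromosomal order, in HEK293T cells (top) and NPCs (bottom). Points are edgeR estimates with their SE, open triangles are genes with at most 1 WT count, drawn as the KO mean over the WT floor of 3 counts, and rings mark called genes. The 9 called genes in HEK293T cells lie around the centromere, with ZNF722 among them as a gene without a call, and these 10 have no NPC value. The 3 called genes in NPCs point downwards.

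Transcripts of 8 members were at or next to 0 in WT HEK293T cells. ZNF716, a KRAB gene on the short arm 0.521 Mb from the centromeric gap, had counts of 0, 0 and 0 in WT and 214, 246 and 295 in KO libraries. Its KO level was 9.31 ± 1.74 CPM (SD, n = 3), at least 91.6-fold above the WT floor (edgeR adjusted p = 5.43e-05). All KO libraries were high and none of the WT libraries had a read.

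ZNF479, the other called KRAB gene of 7p11, had WT counts of 0, 0 and 1 and KO counts of 99, 49 and 189. The ratio of KO to WT counts was 363, with a 95% exact binomial counting interval of 64.7 to 14375 (edgeR adjusted p = 0.00117). The KO libraries differed among themselves by more than they did for ZNF716, with S19 the lowest of the 3 and S20 the highest.

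The first members on the long arm are a pair of pseudogenes. ZNF733P had WT counts of 0, 0 and 0 and KO counts of 114, 125 and 126, at least 44.3-fold above the floor (edgeR adjusted p = 0.000175). ZNF734P had WT counts of 1, 0 and 0 and KO counts of 185, 268 and 243, a ratio of 749 with a counting interval of 134 to 29644 (edgeR adjusted p = 1.91e-05). Both had KO libraries close to each other, at 4.51 ± 0.596 and 8.46 ± 0.54 CPM (SD, n = 3).

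The next 4 genes, all with a KRAB pattern, had 0 counts in every WT library. ZNF679 had 109, 56 and 69 counts in KO libraries, at least 29.7-fold above the floor (edgeR adjusted p = 0.00169). ZNF727 had 45, 26 and 24 counts, at least 12-fold above it (edgeR adjusted p = 0.00858). ZNF735 had 16, 12 and 15 counts, at least 5.34-fold above it (edgeR adjusted p = 0.0351). The KO libraries of these 3 genes all had reads, at levels from 0.368 to 4.76 CPM. ZNF722 had 21, 0 and 39 counts and was not called (edgeR adjusted p = 0.331). KO library S19 was at 0, as the WT libraries were, and without it ZNF722 was called with an adjusted p of 0.0144. ZNF722 was singled out after its values were seen.

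**Figure D2:**
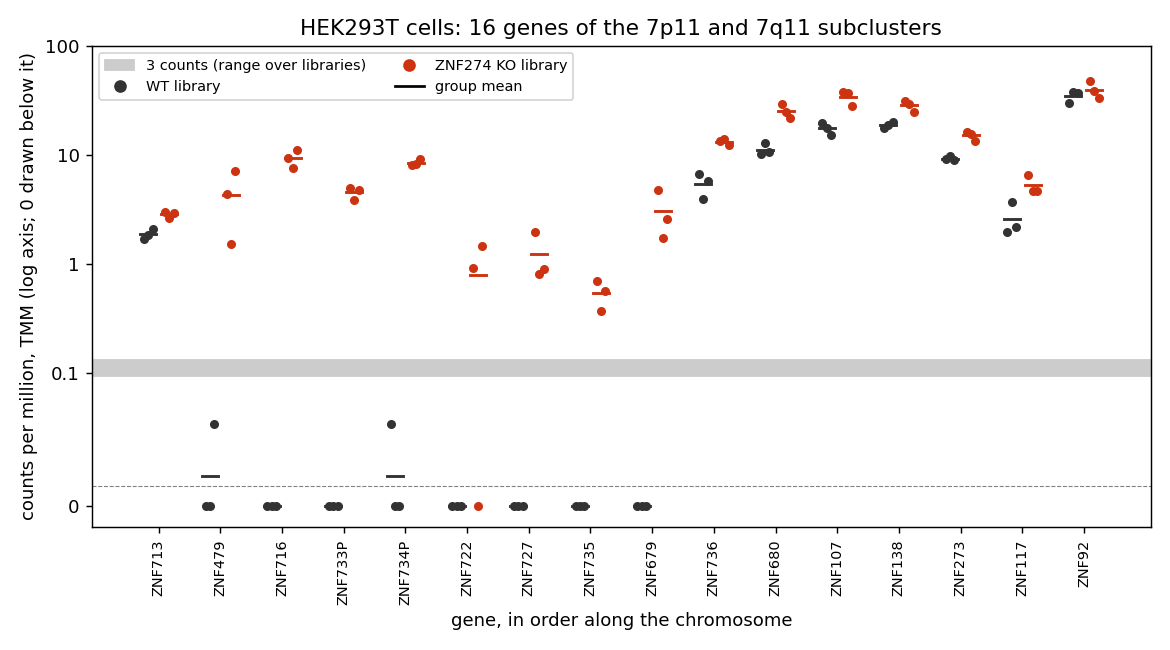
TMM-scaled CPM of the 16 genes of 7p11 and 7q11 in each HEK293T library, on a log axis with 0 drawn below it. Black points are the 3 WT and red points the 3 KO libraries, bars are group means and the grey band is the level of 3 counts. From ZNF479 to ZNF679 the WT libraries lie at or next to 0, and from ZNF736 to ZNF92 both genotypes carry reads.

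The remaining 7q11 genes were transcribed in WT cells. ZNF736 had 200, 115 and 168 counts in WT and 308, 455 and 326 in KO libraries, a log2 FC of 1.28 ± 0.23 (SE; edgeR adjusted p = 0.0432). ZNF680 had 304, 372 and 311 counts in WT and 674, 807 and 579 in KO libraries, a log2 FC of 1.18 ± 0.19 (SE; edgeR adjusted p = 0.0177). The groups did not overlap for either gene, and both passed the FC threshold.

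ZNF107, next to ZNF680, rose by less than the FC threshold, from 17.5 ± 2.11 to 34.2 ± 5.32 CPM (SD, n = 3; log2 FC 0.97, edgeR adjusted p = 0.0467). Without the FC threshold, 10 members passed on the higher side, ZNF107 and the 9 called genes, against 0.484% of all genes. The 4 genes beyond ZNF107 did not pass the edgeR test, while DESeq2 gave ZNF273 an adjusted p of 0.0198 at a log2 FC of 0.71. ZNF138 had 18.8 ± 1.28 CPM in WT and 28.5 ± 3.3 in KO (log2 FC 0.60, edgeR adjusted p = 0.306), and ZNF273 had 9.23 ± 0.386 and 15.1 ± 1.46 CPM (log2 FC 0.71, edgeR adjusted p = 0.244). ZNF117 had 2.58 ± 0.928 CPM in WT and 5.24 ± 1.06 in KO (log2 FC 1.02, edgeR adjusted p = 0.443), with no overlap of the groups. It shares 16329 bases with the same-strand gene ERV3-1, so that reads of both may have been counted or discarded together. ZNF92, the member of 7q11 farthest from the centromere, had 34.8 ± 4.48 and 39.7 ± 7.65 CPM (log2 FC 0.19, edgeR adjusted p = 0.867), with overlapping groups. On the short arm, ZNF713 at 2.04 Mb from the gap had 1.85 ± 0.2 and 2.85 ± 0.21 CPM (log2 FC 0.62, edgeR adjusted p = 0.703).

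Along the long arm the genes were described in 3 stretches. The 6 genes at 1.70 to 2.63 Mb from the gap had at most 1 WT count over the 3 libraries and 43 to 696 KO counts. The 2 at 2.71 and 2.93 Mb (ZNF736 and ZNF680) rose by 1.28 and 1.18 on the log2 scale, and the 5 at 3.07 to 3.78 Mb had log2 FC values of 0.19 to 1.02. These genes are neighbours and close copies of each other, so that these stretches are a description over 13 positions. Reads that map to several copies were discarded upstream, which leaves the counts of close copies uncertain to that extent.

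Leaving out 1 library at a time gave 5 to 8 called members. Over all genes, 42 (without S16) to 101 (without S18) were called up in these fits, against 91 with all libraries. ZNF479, ZNF716, ZNF733P, ZNF734P and ZNF679 were called in all 6 of these fits. ZNF735 was called in 0 of the 6, with adjusted p-values of 0.0664 to 0.136. ZNF736 was called in 1 of the 6, the fit without S18, and ZNF680 in 2, the fits without S18 and without S20, with adjusted p-values of up to 0.241 and 0.167 in the others. ZNF727 was lost without WT library S16 (adjusted p = 0.0708), and 5 members were called there. ZNF107 was called without S20 (log2 FC 1.10, adjusted p = 0.03) and had adjusted p-values of 0.0523 to 0.371 in the other 5 fits, so that it no longer passed there even without the FC threshold. By voom its adjusted p was 0.0596.

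Many promoters of 7p11 and 7q11 hold few CpG dinucleotides, and 8 of 14 hold a common motif. RefSeq promoters, from 250 bases before to 50 bases after the start, were looked up by symbol in a table on GRCh38.p14. Only those that matched hg19 chromosome 7 at a single place were kept, and of these the one nearest the GENCODE start of the gene. This left a promoter for 36 of the 44 genes. For the others, a missing RefSeq promoter and a failed match are not told apart here. The RefSeq start lies far from that of the GENCODE gene for ZNF736 (6502 bases), ZNF273 (7431 bases), ZNF775 (10540 bases), ZNF117 (15648 bases) and ZNF800 (39216 bases). The 14 promoters of 7p11 and 7q11 hold 0 to 26 CpG dinucleotides (median 9), the 22 others 18 to 50 (median 26), and all 34796 distinct promoters of the table have a median of 14. The 7 called genes with a promoter hold 0 to 13. The motif CCAATCAG, looked for on both strands and chosen after these promoters had been read, occurs in 8 of the 14 promoters, in 2 of the 22 others (ZNF862 and ZNF775) and in 3.98% of all promoters. It contains the shorter motif CCAAT, which 11 of the 14, 7 of the 22 and 34.6% of all promoters hold. TATAAA occurs in 0 of the 36 and in 11.6% of all promoters, and GGGCGG in 3 of the 14, 17 of the 22 and 44.9% of all.

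The promoters of 6 genes are shown, in hg19 on the strand of the gene, with CCAATCAG in capitals. They were chosen among the promoters that hold it 2 times, and span genes with 0 counts in WT cells (ZNF716, ZNF722 and ZNF727), a gene that rose (ZNF680), its neighbour just under the FC threshold (ZNF107) and the last gene of 7q11, with overlapping groups in HEK293T cells (ZNF92).
ZNF716 (chr7:57509633-57509932, plus strand): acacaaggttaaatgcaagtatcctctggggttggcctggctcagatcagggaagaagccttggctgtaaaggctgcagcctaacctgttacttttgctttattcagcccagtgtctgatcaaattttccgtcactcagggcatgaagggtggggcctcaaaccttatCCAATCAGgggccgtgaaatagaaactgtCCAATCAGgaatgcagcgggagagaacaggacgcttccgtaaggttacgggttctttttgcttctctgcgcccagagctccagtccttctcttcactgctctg
ZNF722 (chr7:63458977-63459276, plus strand): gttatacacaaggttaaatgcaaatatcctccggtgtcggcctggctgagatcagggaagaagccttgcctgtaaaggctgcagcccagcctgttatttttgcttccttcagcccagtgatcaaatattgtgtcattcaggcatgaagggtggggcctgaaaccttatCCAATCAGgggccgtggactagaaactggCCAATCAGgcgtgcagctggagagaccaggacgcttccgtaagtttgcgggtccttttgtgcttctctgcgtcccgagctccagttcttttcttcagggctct
ZNF727 (chr7:63505562-63505861, plus strand): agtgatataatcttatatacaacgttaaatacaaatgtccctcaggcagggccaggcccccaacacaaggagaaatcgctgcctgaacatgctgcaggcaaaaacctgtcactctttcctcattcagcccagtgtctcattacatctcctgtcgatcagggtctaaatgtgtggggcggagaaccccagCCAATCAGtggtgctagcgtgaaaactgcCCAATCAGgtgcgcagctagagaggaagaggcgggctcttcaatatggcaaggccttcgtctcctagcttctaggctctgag
ZNF680 (chr7:64023400-64023699, minus strand): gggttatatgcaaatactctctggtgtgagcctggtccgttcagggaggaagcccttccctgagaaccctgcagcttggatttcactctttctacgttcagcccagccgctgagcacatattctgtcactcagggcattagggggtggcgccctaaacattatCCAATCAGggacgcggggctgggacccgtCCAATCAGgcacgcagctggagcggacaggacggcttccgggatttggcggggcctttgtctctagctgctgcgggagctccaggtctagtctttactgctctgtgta
ZNF107 (chr7:64126261-64126560, plus strand): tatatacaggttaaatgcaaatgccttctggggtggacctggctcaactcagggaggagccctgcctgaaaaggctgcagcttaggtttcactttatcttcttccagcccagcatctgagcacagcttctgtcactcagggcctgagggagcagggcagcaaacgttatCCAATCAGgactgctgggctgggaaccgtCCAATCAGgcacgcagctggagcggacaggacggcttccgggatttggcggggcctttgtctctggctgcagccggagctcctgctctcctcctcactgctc
ZNF92 (chr7:64838518-64838817, plus strand): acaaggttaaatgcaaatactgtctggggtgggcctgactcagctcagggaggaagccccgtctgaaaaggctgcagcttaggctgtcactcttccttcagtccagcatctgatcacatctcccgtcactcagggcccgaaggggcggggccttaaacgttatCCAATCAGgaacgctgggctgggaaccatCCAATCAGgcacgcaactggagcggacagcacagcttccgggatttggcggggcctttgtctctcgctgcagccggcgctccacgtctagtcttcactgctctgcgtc

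In each of these 6 promoters the motif stands 2 times on the strand of the gene, and the copies start 29 bases apart. The first copy begins 61 to 87 bases before the start. The promoters of ZNF680 and ZNF107 share an unbroken run of 68 bases that includes the second copy, and both share 31 bases with ZNF92. The motif was found in 4 of the 7 called genes that have a promoter and in 4 of the 7 genes of 7p11 and 7q11 that were not called. ZNF736, which rose, has 1 copy, and ZNF479, ZNF735 and ZNF679, which were called, have no match for these exact letters. The promoters of ZNF722 and ZNF735 share a run of 27 bases that begins at -107 from the start in ZNF722 and at -220 in ZNF735. This run ends in the first letters of CCAATCAG in ZNF722 and of CCCATCAG in ZNF735.

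**Figure D3:**
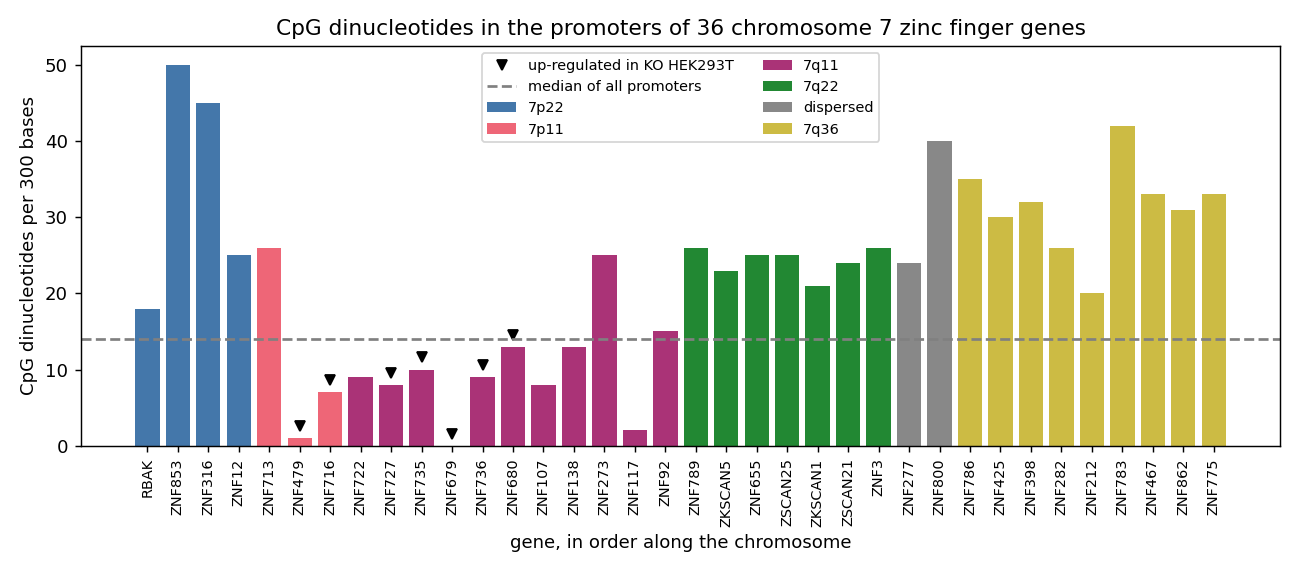
CpG dinucleotides in the 300 promoter bases of the 36 matched genes, in chromosomal order and coloured by subcluster. Triangles mark genes up-regulated in KO HEK293T cells and the dashed line is the median of all promoters, 14. The run of low bars from ZNF479 to ZNF92, with ZNF273 as the exception at 25, stands at 0 to 15.

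Outside 7p11 and 7q11, every KO library was above every WT library in 3 members (ZNF12, ZNF425 and ZNF467) and below in 2 (ZNF282 and ZNF783), and the groups of the other 23 overlapped. Over all genes, 5.27% had every KO library below. In 7p22 the median log2 FC of the 6 members was 0.00. ZNF12, a KRAB gene that an opposite-strand gene without a symbol overlaps over 18515 bases, had 835, 988 and 816 counts in WT and 1077, 1464 and 927 in KO libraries (log2 FC 0.50, edgeR adjusted p = 0.531). ZNF890P had the lowest value there, with 18, 9 and 22 counts in WT and 4, 9 and 15 in KO libraries (log2 FC -0.70, edgeR adjusted p = 0.84).

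RBAK, ZNF815P, ZNF853 and ZNF316 had log2 FC values of -0.30 to 0.32 with adjusted p-values of 0.867 to 0.938.

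In 7q22 the log2 FC ran from -0.06 for ZSCAN21 (edgeR adjusted p = 0.961), a SCAN gene, to 0.36 for ZNF655 (edgeR adjusted p = 0.673), with a median of 0.22 over 8 members. All 8 had overlapping groups. In 7q36 the 12 members had a median of -0.07. ZNF467, a C2H2 gene with a part in osteoblast and adipocyte fate, had 19, 23 and 7 counts in WT and 93, 26 and 27 in KO libraries (log2 FC 1.80 ± 0.66, SE; edgeR adjusted p = 0.575). KO library S18 stood far above the others, at 4.06 CPM against at most 1.01 CPM. Without S18 its log2 FC was 0.70 (edgeR adjusted p = 0.938). ZNF783 had 488, 607 and 389 counts in WT and 215, 418 and 323 in KO libraries (log2 FC -0.55 ± 0.22, SE; edgeR adjusted p = 0.639), with KO libraries below WT ones after scaling. The other 10 members of 7q36 ran from -0.21 for ZNF282 (edgeR adjusted p = 0.778) to 0.72 for ZNF862 (edgeR adjusted p = 0.763). The dispersed genes ZNF277, which binds the Polycomb protein BMI1, and ZNF800 had log2 FC values of -0.12 and 0.13 (edgeR adjusted p = 0.912 and 0.914).

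In NPCs, 3 of the 34 genes were down-regulated upon ZNF274 KO and 0 up-regulated. They were ZNF853 in 7p22, ZNF789 in 7q22 and ZNF467 in 7q36, that is 1 in each of 3 subclusters. Of the 16 members of 7p11 and 7q11, 6 were tested in NPCs, and none of the 9 genes called in HEK293T cells was among them. Over all 20577 genes, 8.36% were called down and 8.45% up, so the share of called members, 8.82%, was near the background. At an unadjusted p below 0.05, 15 members were lower and 1 was higher (ZNF783), against 19.7 and 20.6% of all genes, and DESeq2 and voom called 0 higher. The log2 FC was below 0 in 28 of 34 members, against 51.2% of all genes, and its median was -0.43, against -0.02 over all genes. KO libraries were both below the WT libraries in 23 members and both above them in 3, against 33.8 and 33.3% of all genes.

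ZNF853 had 494 and 451 counts in WT and 204 and 256 in KO libraries, or 23.2 ± 0.212 and 10.8 ± 1.03 CPM (SD, n = 2; log2 FC -1.10 ± 0.18, SE; edgeR adjusted p = 0.00407). ZNF789, a KRAB gene, had 146 and 154 counts in WT and 56 and 70 in KO libraries (log2 FC -1.32 ± 0.28, SE; edgeR adjusted p = 0.0121). It overlaps ZNF394 on the opposite strand over 29774 bases. ZNF394 itself had 241 and 243 counts in WT and 281 and 279 in KO libraries (log2 FC 0.15, edgeR adjusted p = 0.616). The setting for strand in the counting is not given in the sources used here, so that reads of these 2 genes cannot be told apart with certainty.

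ZNF467 had 100 and 27 counts in WT and 1 and 10 in KO libraries (log2 FC -3.55 ± 0.91, SE; edgeR adjusted p = 0.0263). The WT libraries were apart from each other, at 4.73 and 1.38 CPM, and the count of KO library S1 was under the floor of 3. None of the 3 calls held in every fit that left out 1 library. ZNF467 also lost its call by voom (adjusted p = 0.0722) and ZNF853 in the fit of all 10 libraries (adjusted p = 0.0806). The log2 FC of ZNF467 ran from -5.80 without S2 to -2.41 without S3. Without S1 the adjusted p was 0.0649 for ZNF853, 0.114 for ZNF789 and 0.118 for ZNF467, and the number of called members fell to 1 (ZNF92). Without S2 it was 0.073 for ZNF789. Without WT library S5, ZNF783 was called higher (log2 FC 1.23, adjusted p = 0.000542).

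**Figure D4:**
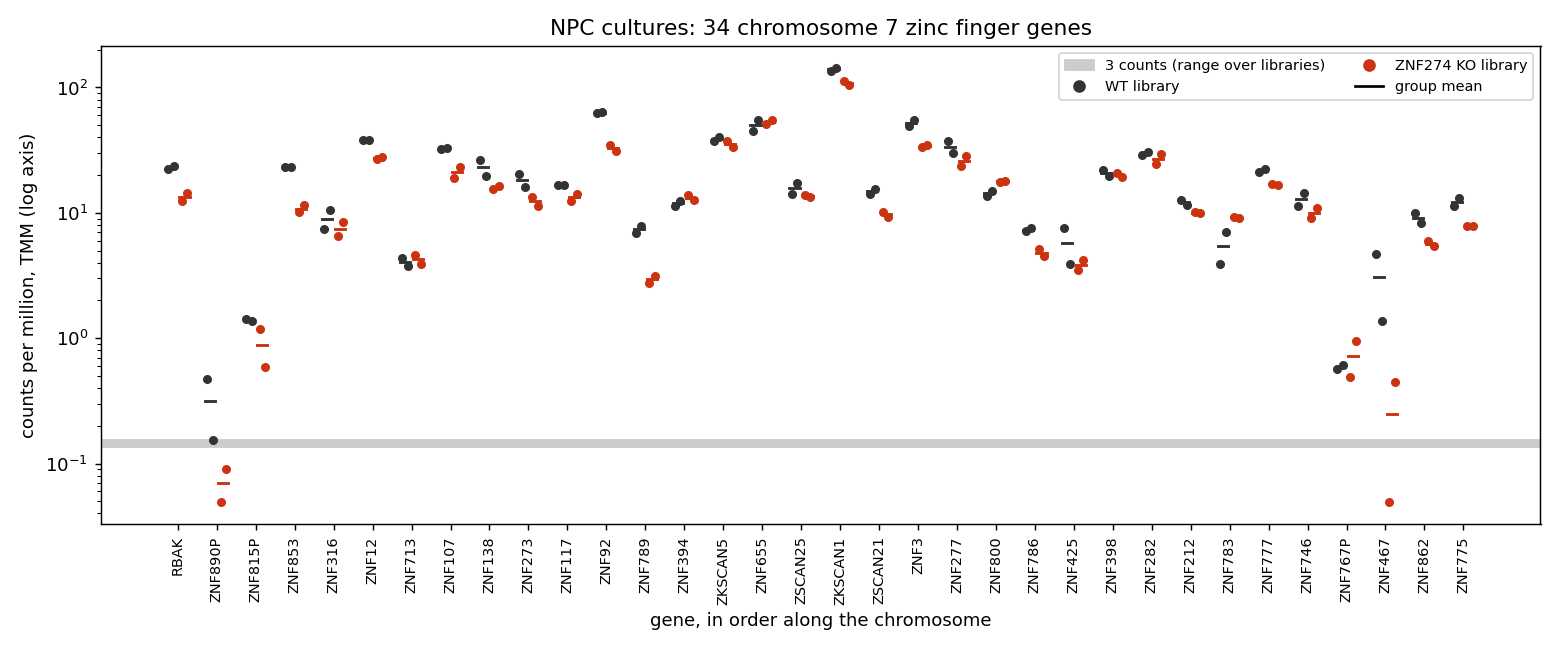
TMM-scaled CPM of the 34 genes analysed in NPCs, in each library, on a log axis. Black points are the 2 WT and red points the 2 KO libraries, bars are group means and the grey band is the level of 3 counts. In 23 genes both KO points lie below both WT points.

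Without the FC threshold, 9 members passed an adjusted p below 0.05, all lower, against 13.7% of all genes lower at that level. Beside the 3 called genes these were RBAK, ZNF12, ZNF107, ZNF92, ZKSCAN1 and ZNF3. ZNF92 had 1332 and 1234 counts in WT and 704 and 692 in KO libraries, or 63.1 ± 0.0766 and 33 ± 2.54 CPM (SD, n = 2; log2 FC -0.94, edgeR adjusted p = 0.00206). It had the highest WT level per kb of exon of the 34 genes, 17.96 CPM per kb. RBAK, whose product binds the retinoblastoma protein, had 23 ± 0.677 CPM in WT and 13.4 ± 1.33 CPM in KO (SD, n = 2; log2 FC -0.78, edgeR adjusted p = 0.0153). ZNF107 had 32.7 ± 0.591 CPM in WT and 21.2 ± 3.05 CPM in KO (log2 FC -0.63, edgeR adjusted p = 0.0267).

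The remaining 3 genes passed with smaller differences. ZNF3 had 52.1 ± 4.34 CPM in WT and 34.2 ± 0.705 CPM in KO (log2 FC -0.61, edgeR adjusted p = 0.0139). ZNF12 had 38.2 ± 0.197 CPM in WT and 27.4 ± 0.581 CPM in KO (log2 FC -0.48, edgeR adjusted p = 0.0354). ZKSCAN1, the gene with the highest CPM of the 34, had 139 ± 6.24 CPM in WT and 109 ± 5.16 CPM in KO (log2 FC -0.36, edgeR adjusted p = 0.0448). Errors are the SD over 2 libraries. In each of the 9 genes both KO libraries were below both WT libraries. Without KO library S1 or S2, the adjusted p (edgeR) was above 0.05 for 5 of the 6 genes under the FC threshold, reaching 0.166 for RBAK, 0.238 for ZNF12, 0.231 for ZNF107, 0.29 for ZKSCAN1 and 0.131 for ZNF3. For ZNF92 it stayed at or below 0.0313 in every fit that left out 1 library.

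Of the others with an unadjusted p below 0.05, ZNF138, ZNF273, ZSCAN21, ZNF786, ZNF862 and ZNF775 had log2 FC values of -0.54 to -0.69 and adjusted p-values of 0.0587 to 0.116 (edgeR). ZNF783 was the highest of 7q36, with 82 and 137 counts in WT and 189 and 201 in KO libraries (log2 FC 0.76, edgeR adjusted p = 0.124). It shares 7588 bases with a same-strand gene without a symbol. ZNF713, the single 7p11 gene analysed in NPCs, lies over its whole 55075 bases within a same-strand gene without a symbol. It had 4.05 ± 0.437 CPM in WT and 4.26 ± 0.544 CPM in KO (SD, n = 2; log2 FC 0.07, edgeR adjusted p = 0.885). ZNF117 had the smallest difference of 7q11 (log2 FC -0.32, edgeR adjusted p = 0.238) and ZNF316 the smallest of 7p22 (log2 FC -0.25, edgeR adjusted p = 0.54). ZNF890P had 10 and 3 counts in WT and 1 and 2 in KO libraries, the latter under the floor of 3 counts (edgeR adjusted p = 0.236).

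The remaining 13 genes (ZNF815P, ZKSCAN5, ZNF655, ZSCAN25, ZNF277, ZNF800, ZNF425, ZNF398, ZNF282, ZNF212, ZNF777, ZNF746 and ZNF767P) had log2 FC values of -0.66 to 0.32 and adjusted p-values of 0.126 to 0.848 (edgeR).

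Markers of other cell types moved with the genotype in NPCs. Of 8 neural progenitor markers, 5 were called lower and 0 higher in KO NPCs, and of 8 mesenchymal markers, 4 were called higher and 0 lower. Over all genes tested in NPCs, 8.36% were called lower and 8.45% higher. The summed level of the mesenchymal list was 1206 to 2058 CPM in WT and 4959 to 5720 CPM in KO libraries, and that of the neural progenitor list 9635 to 9838 and 9611 to 10326 CPM. VIM and NES, which were not called, make up most of this list's sum, while SOX2 went from 223 to 16.9 CPM and PAX6 from 83.2 to 33.7 CPM. Of 6 neuron markers 3 were called lower, of 4 pluripotent markers 1 lower and 1 higher, of 4 epithelial markers 2 higher, of 3 neural crest and 3 embryonic kidney markers 1 higher each, and of 2 endothelial markers 1 higher and 1 lower. In bulk libraries, fewer cells of a type and less RNA per cell cannot be told apart. The part of these markers' cell types in the values of the 34 genes was not tested. In HEK293T cells 0 of the 27 markers tested were called by edgeR, DESeq2 or voom, and 0 had an unadjusted p below 0.05 by edgeR.

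The KO effect in NPCs differed from that in HEK293T cells, by an interaction term, in 7 of the 34 genes. In 6 of them (ZNF107, ZNF138, ZNF273, ZNF92, ZNF789 and ZNF467) the NPC effect was below the HEK293T effect, and in ZNF783 it was above. Calls of the term required an adjusted p under 0.05 and a size above 1 on the log2 scale, which 6.22% of the 19255 genes reached with a lower and 6.01% with a higher NPC effect. It was below 0 in 29 of the 34 genes, against 51.1% of all genes.

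Of the 7 genes, 4 lie in the distal end of 7q11. The difference was -1.58 for ZNF107 (SE 0.27, edgeR adjusted p = 0.00221), which was called in all 10 fits that left out 1 library. It was -1.24 for ZNF273 (edgeR adjusted p = 0.0114), -1.12 for ZNF138 (edgeR adjusted p = 0.0136) and -1.11 for ZNF92 (edgeR adjusted p = 0.0126). ZNF117, which lies among them, had -1.31 and missed the threshold (edgeR adjusted p = 0.0512). ZNF107, ZNF138, ZNF273 and ZNF117 had KO libraries above WT ones in HEK293T cells and below them in NPCs, with no overlap in either. The same held for ZNF12 in 7p22 and ZNF467 in 7q36. Over all genes, every KO library was above every WT library in 7.16% in HEK293T cells, and below in 33.8% in NPCs.

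The other 3 lie in 7q22 and 7q36. The difference was -1.60 for ZNF789 (edgeR adjusted p = 0.0324), -5.33 for ZNF467 (edgeR adjusted p = 0.0157) and 1.33 for ZNF783 (edgeR adjusted p = 0.0445). Without 1 of the 10 libraries, ZNF789 lost its call in 6 fits and ZNF783 in 8, with adjusted p-values of up to 0.134 and 0.155. ZNF138 lost it without NPC library S1, S2 or S3 (adjusted p up to 0.0699), ZNF273 without S2 (0.0703), ZNF92 without S2 (0.0685) or, by size, without S18 (-0.95), and ZNF467 without S1 (0.0802) or S3 (0.0725). The number of called genes ran from 2 to 8 over these fits.

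**Figure D5:**
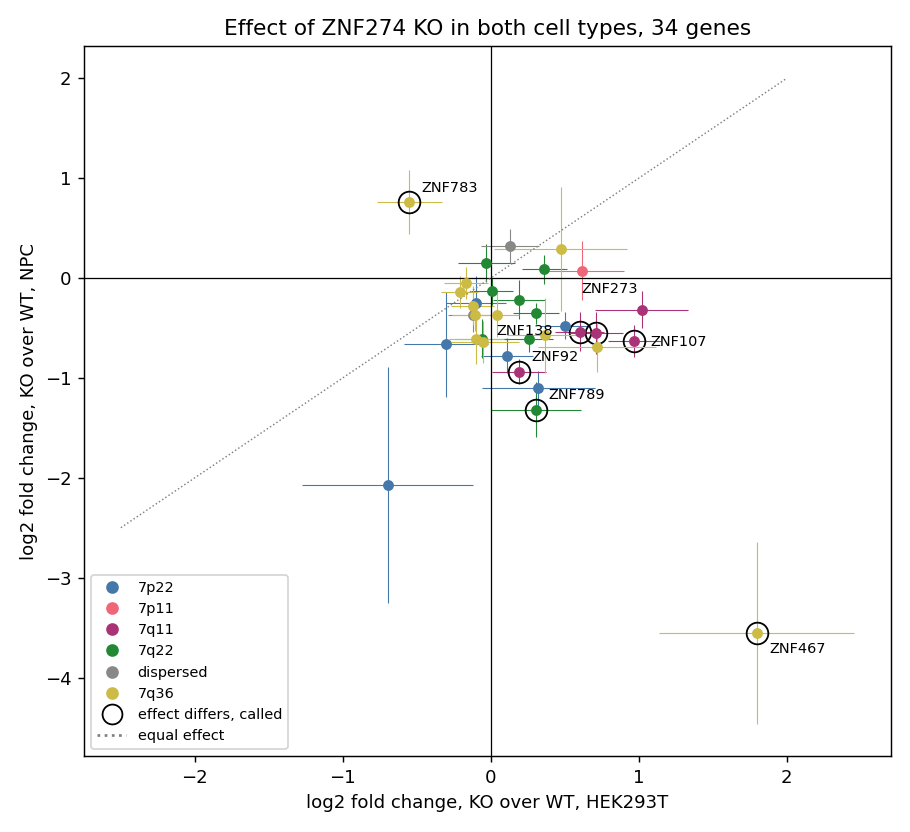
Log2 FC of KO over WT in HEK293T cells (x axis) and NPCs (y axis) for the 34 genes analysed in both, with SE bars and coloured by subcluster. Rings mark the 7 genes whose effect differed by the interaction term and the dotted line marks equal effects. Most points, 29 of 34 by the sign of the term, lie below the line.

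Levels per kb of exon spread widely in WT cells. In WT HEK293T cells they ran from 0 to 29.8 CPM per kb over 44 genes, with a median of 2.1. ZNF282, which binds a viral long terminal repeat, was the highest. In WT NPCs the median over 34 genes was 2.68 CPM per kb. In KO HEK293T cells the 8 genes with at most 1 WT count had 0.144 CPM per kb (ZNF727) to 5.52 CPM per kb (ZNF734P), with 1.79 for ZNF716 and 2.07 for ZNF479, beside a median of 2.94 over all 44 genes.

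A KRAB pattern was found in 26 of the 39 coding genes, 13 of them in 7p11 and 7q11 and 13 elsewhere. In HEK293T cells 7 of the former and 0 of the latter were called, against 0.478% of all genes called up and 0.0105% down. Of the 7, ZNF479, ZNF716, ZNF727, ZNF735 and ZNF679 had at most 1 WT count and passed the filter on low counts through their KO libraries. At an unadjusted p below 0.05, 2 of the 13 elsewhere were higher (ZNF12 and ZNF655) and 1 lower (ZNF783), against 4.43% and 2.69% of all genes. A missing match does not show that a protein lacks the domain. A SCAN pattern was found in 5 genes, all in 7q22, of which 0 were called in either cell type by edgeR, DESeq2 or voom, while 2 were lower in NPCs and 0 differed in HEK293T cells at an unadjusted p below 0.05, against 19.7% of all genes lower in NPCs.

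Genes of other kinds inside the subclusters were compared in the same fits. Of 68 tested in HEK293T cells, 0 were called up or down by edgeR, DESeq2 or voom. At an unadjusted p below 0.05, 6 were higher and 0 lower by edgeR, against 4.43% and 2.69% of all genes. Of the 68, 8 lie in 7q11, where 1 was higher at that level. That gene, TRIM60P18, shares 1122 bases on the same strand with the called member ZNF736. Of 63 tested in NPCs, 2 were called up and 3 down (3.17% and 4.76%), against 8.45% and 8.36% of all genes. Those down were SLC29A4 in 7p22, ERV3-1 in 7q11 and REPIN1 in 7q36, and those up were ZBED10P and LRRC61 in 7q36. REPIN1 shares 5255 bases on the same strand with ZNF775, and ERV3-1 overlaps ZNF117 as given above.

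Zinc finger genes on other chromosomes, ZNF274 left out, had 58 of 478 called up and 0 down in HEK293T cells, 12.1% against 20.5% of the 44 genes of chromosome 7. Of the 9 called on chromosome 7, 5 had 0 WT counts and 2 had 1, and these passed the filter on low counts through their KO libraries. The like number is not given here for other chromosomes. Zinc finger genes on chromosome 19 had 44 of 243 called up (18.1%), and over all genes 0.478% were called up in HEK293T cells. In NPCs 40 of 505 were called up and 20 down (7.92% and 3.96%), against 8.45% and 8.36% of all genes. The median log2 FC of the 505 was -0.06, against -0.43 for the 34 genes of chromosome 7. Those on chromosome 19 had 31 of 255 called up and 5 down in NPCs, with a median log2 FC of 0.17. The difference between the chromosomes was not tested.

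A list of 20 genes held TRIM28, SETDB1, HP1 proteins, H3K9 methyltransferases and other chromatin proteins, the architectural factors CTCF and RAD21 among them. Of the 20, 0 were called in either cell type by edgeR, DESeq2 or voom. In HEK293T cells 0 were higher and 1 was lower at an unadjusted p below 0.05, against 4.43% and 2.69% of all genes. The lower one was TRIM28, the corepressor that KRAB domains bind, with 30751, 23624 and 29268 counts in WT and 7160, 11505 and 22644 in KO libraries (944 ± 115 and 504 ± 297 CPM, SD, n = 3; edgeR adjusted p = 0.537). KO libraries S18 and S19 were low and S20 stood apart from them. In NPCs 3 were higher and 11 lower at an unadjusted p below 0.05, against 20.6% and 19.7% of all genes. Without the FC threshold, 1 higher and 10 lower passed an adjusted p below 0.05, against 14.9% and 13.7% of all genes. TRIM28 went from 716 to 467 CPM (log2 FC -0.61, edgeR adjusted p = 0.00619), and SETDB1, the methyltransferase it recruits, from 76.7 to 50.1 CPM (log2 FC -0.61, edgeR adjusted p = 0.00876). Their part in the values of the 44 genes was not tested.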

How the data were processed

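Stranded mRNA-seq libraries were compared within HEK293T cells (3 WT, 3 KO) and within NPCs (2 WT, 2 KO). The authors deposited raw counts per gene, made from uniquely mapped reads on hg19 with HISAT2 and featureCounts, as the submitters' processing notes name them (versions not given in the sources used here). Counts were tested with edgeR 4.0.16 (glmQLFit and glmQLFTest, TMM scaling) in R 4.3.3 after removing genes whose total count was below the number of libraries, separately for each cell type, and with an interaction term over all 10 libraries for genes in both tables. Genes were called at a Benjamini-Hochberg adjusted p below 0.05 and an FC above 2. The study used voom (limma 3.58.1 here), which was run as an alternative with DESeq2 1.42.0, other scalings and filters, and without each library in turn. Replicate libraries differed beyond sampling noise (chi-square per degree of freedom 10.5 to 81.9). Subclusters, marker lists, members and tests were chosen with earlier results of these data known.

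Named genes were the members called in either cell type or by the interaction term, those with an unadjusted p below 0.05 and groups that did not overlap, and the members with the largest and smallest log2 FC of each subcluster. ZNF722, TRIM28 and SETDB1 were named after their values were seen. KRAB and SCAN patterns were searched in translated GENCODE transcripts. Promoter sequences are from RefSeq on GRCh38.p14, placed on hg19 by exact match.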

Additional observations from a re-analysis of the deposited data

Results flagged for a closer look

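The KO effect differed between NPCs and HEK293T cells in 7 of the 34 genes analysed in both, by the interaction term of edgeR. Over the 19255 genes of the joint fit, 6.22% were called with a lower and 6.01% with a higher NPC effect. As given above, not all of the 7 calls held when 1 library was left out. The NPC effect minus the HEK293T effect, in log2, was -1.58 for ZNF107, -1.12 for ZNF138, -1.24 for ZNF273 and -1.11 for ZNF92 in 7q11. It was -1.60 for ZNF789 in 7q22, and -5.33 for ZNF467 and 1.33 for ZNF783 in 7q36. HEK293T cells and NPCs also differ in donor, knockout clone and number of libraries, and these cannot be told apart from the cell type.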

How the results depend on the processing

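Leaving out 1 library at a time gave 5 to 8 members called up in HEK293T cells, 1 to 3 called down and 0 to 1 called up in NPCs, and 2 to 8 called interactions. Over all genes, 42 to 101 were called up in HEK293T cells without 1 library, against 91 with all libraries. A fit of all 10 libraries gave 0 members up in HEK293T cells, because the 9 genes are not in the joint fit. Without the FC threshold 9 members were down in NPCs, and at an adjusted p below 0.01 there was 1, as there was 1 interaction. Scaling by library size alone moved the median log2 FC of all genes in NPCs by -0.108 and that of the members from -0.43 to -0.54, with -0.37 over coding members and -0.50 to -0.40 without 1 library. The HEK293T median ran from 0.16 to 0.42 without 1 library. With a border of 6 Mb, 7p11 and 7q11 joined into 1 subcluster with 9 genes up. With a border of 1 Mb, 7p11 had no run of 3 members left, and 7q11 kept 7 genes up. Library size alone turned the sign of ZSCAN21 in HEK293T cells (0.032) and of ZNF713 in NPCs (-0.036). Without 1 library ZSCAN21 ran from -0.21 to 0.055, ZNF713 from -0.063 to 0.19 and ZNF316 in NPCs from -0.48 to 0.0066, and none of these was called. Of the other values, 632 kept direction and call, 51 lost a call and 13 gained 1. The cause of these changes was not tested. No paired analysis was possible because the library numbers are not shared between groups. At this depth the floor of 3 counts was 0.0921 to 0.131 CPM in HEK293T cells and 0.135 to 0.154 CPM in NPCs.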
